A study of Rattus norvegicus with 24 samples.

Results

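This section describes 6 genes of neuropeptide signalling in the rat carotid body (CB), the small chemosensory organ at the bifurcation of the common carotid artery. They comprised 4 genes for G protein-coupled peptide receptors, Vipr2, Sctr, Npy1r and Oprl1, and 2 genes for peptide precursors, Prlh and Tac3. They are 6 of the 32623 genes in the count matrix, and all 6 were among the 14243 genes tested after a filter on low counts. Their identifiers were taken from the study's table of genes that differed between strains, and the part of that table read here holds only genes higher in spontaneously hypertensive (SH) rats. All 6 were therefore chosen as higher in SH rats, and the strain values given for them, counts of calls included, are descriptions that support nothing.

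The study measured polyadenylated RNA in left and right CBs of male WKY/NHsd rats, the normotensive control strain, and male SHR/NHsd rats, the hypertensive strain. The animals were 12 to 14 weeks old. Each strain had 6 rats, and each rat gave 1 library per side, so the series holds 24 libraries. The labels name no treatment, and CBs were dissected after perfusion with cold PBS.

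Glomus cells, the oxygen-sensing cells of the CB, store catecholamines and peptides in dense-core vesicles and synapse on sensory endings of petrosal neurons. Peptides released there act through G protein-coupled receptors on glomus cells, nerve endings and vessels, and adjust chemosensory discharge and local blood flow more slowly than the fast transmitters do. The receptors described here couple to different G proteins: the Vipr2 and Sctr products raise cyclic AMP, whereas the Npy1r and Oprl1 products lower it.

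Library totals ran from 9198341 to 13655419 counts in the 23 libraries used for the main comparisons. The right CB library of SH rat 34, which the study's gene table left out, stood apart from the others. Thyroglobulin (Tg), a thyroid marker, reached 7849 CPM there (CPM are counts scaled to library size), against at most 218.2 CPM in the other 23 libraries. The summed level of 3 glomus cell markers (Dbh, Chga and Chgb) was 60.03 CPM there and 900.8 to 1970 CPM elsewhere. Adipocyte markers (Adipoq and Fabp4) summed to 391.5 CPM, against at most 60.3 CPM elsewhere. Values below are from the 23 libraries unless all 24 are named. In a bulk library, fewer cells of a type and less RNA per cell cannot be told apart.

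The promoters of Vipr2, Sctr, Npy1r and Prlh are shown because these genes were measured together and because their start regions differ in composition. RefSeq promoter sequences of the build GRCr8 were matched for these 4 of the 6 genes, and none was matched for Oprl1 or Tac3. Each runs from 250 bases before to 50 bases after the annotated start, on the strand of the gene, and is printed 5′ to 3′. Capitals mark matches, on either strand, to the core of the cyclic AMP response element (TGACG), that of the hypoxia response element (ACGTG or GCGTG), a GC box (GGGCGG) or a TATA box (TATAAA).
Vipr2, chr6:143144273-143144572, plus strand: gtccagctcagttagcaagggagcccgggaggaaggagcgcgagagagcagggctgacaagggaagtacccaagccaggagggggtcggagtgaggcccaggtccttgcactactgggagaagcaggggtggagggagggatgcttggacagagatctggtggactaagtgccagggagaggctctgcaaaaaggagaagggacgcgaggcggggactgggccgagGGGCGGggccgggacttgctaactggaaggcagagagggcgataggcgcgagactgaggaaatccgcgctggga
Sctr, chr13:33680377-33680676, plus strand: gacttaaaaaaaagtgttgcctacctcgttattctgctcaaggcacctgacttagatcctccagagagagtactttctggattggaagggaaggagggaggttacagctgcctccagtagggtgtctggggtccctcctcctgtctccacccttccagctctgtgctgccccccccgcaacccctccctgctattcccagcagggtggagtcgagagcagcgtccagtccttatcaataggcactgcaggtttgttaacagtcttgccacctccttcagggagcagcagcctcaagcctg
Npy1r, chr16:27813338-27813637, minus strand: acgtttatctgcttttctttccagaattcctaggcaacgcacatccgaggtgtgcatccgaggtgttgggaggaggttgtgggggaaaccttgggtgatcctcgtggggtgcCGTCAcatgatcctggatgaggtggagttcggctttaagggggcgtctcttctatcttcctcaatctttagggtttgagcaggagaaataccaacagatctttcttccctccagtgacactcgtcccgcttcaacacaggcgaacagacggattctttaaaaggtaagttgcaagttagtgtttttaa
Prlh, chr9:98993913-98994212, plus strand: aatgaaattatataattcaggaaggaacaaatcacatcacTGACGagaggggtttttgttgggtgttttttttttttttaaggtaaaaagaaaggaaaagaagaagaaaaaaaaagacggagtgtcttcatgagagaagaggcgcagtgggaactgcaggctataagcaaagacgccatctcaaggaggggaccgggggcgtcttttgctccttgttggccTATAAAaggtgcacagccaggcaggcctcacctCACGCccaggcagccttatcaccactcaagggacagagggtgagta

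The Prlh window held a TATA box from -29 to -24 relative to the start, and 14.2% of the 33469 promoters in the table hold that motif. It also held a TGACG match at -210 to -206 and a reverse match to GCGTG just after the start. The Npy1r window held 1 TGACG match, in reverse, at -138 to -134. TGACG occurs in 21.2% of all promoters, and GCGTG occurs in 29.7%. The Vipr2 window held 1 GC box at -24 to -19, a motif found in 33.1% of promoters, and had the highest GC content of the 4 (64%, against a median of 51.7% over all promoters). The Sctr window held none of the motifs searched. No full cyclic AMP response element (TGACGTCA, in 1.83% of promoters) was found in the 4 windows. These are matches of letters and not measured sites.

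Between strains, the members differed by log2 fold-changes (LFC, SH over WKY rats) of 0.40 to 1.50. All 6 had an adjusted p under 0.05 in edgeR's quasi-likelihood test, and 20.1% of all genes tested did so, 10.2% in the direction of SH rats. The members were chosen on this contrast, so nothing is read from that count. With all 24 libraries, 4 of the 6 were called (all but Vipr2 and Tac3), where 10.4% of genes were. Marker genes of several cell types and tissues stood higher in SH rats as well, and they too could be named only from genes higher in that strain. The ganglion neuron markers (Prph, Nefh, Scn9a and Chrna3) summed to 236.3 to 340.4 CPM in WKY and 395.9 to 527.8 CPM in SHR libraries, with 4 of 4 called and a median LFC of 0.614. The glomus markers summed to 900.8 to 1363 CPM in WKY and 1115 to 1970 CPM in SHR libraries, with 3 of 3 called and a median LFC of 0.398. Of the macrophage, endothelial and mast cell markers, 5 of 5, 4 of 5 and 2 of 2 were called, with median LFCs of 0.611, 0.297 and 2.16. Of the striated muscle, fibroblast, smooth muscle and adipocyte markers, 3 of 5, 1 of 4, 0 of 3 and 0 of 2 were called. Their median LFCs were 0.862, 0.435, 0.524 and 1.22, and the thyroid marker Tg was called with an LFC of 3.17. Tg was uneven among SHR libraries: on the right side, rat 30 gave 218.2 CPM and rat 37 gave 29.3 CPM. The remaining SHR libraries held 0.461 to 8.41 CPM of Tg, and WKY libraries held 0.097 to 10.7 CPM. How far the Tg call rests on SH rats 30 and 37 was not tested. With all 24 libraries 0 of 3 glomus and 1 of 4 ganglion neuron markers were called. Of the macrophage, mast cell, endothelial, striated muscle and fibroblast markers, 5 of 5, 2 of 2, 2 of 5, 2 of 5 and 1 of 4 were. No smooth muscle, adipocyte or thyroid marker was called there. The part of these cells in the members' strain differences was not tested.

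The plot of CPM by strain and side shows how differently the 6 genes separated the strains.

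**Figure D1:**
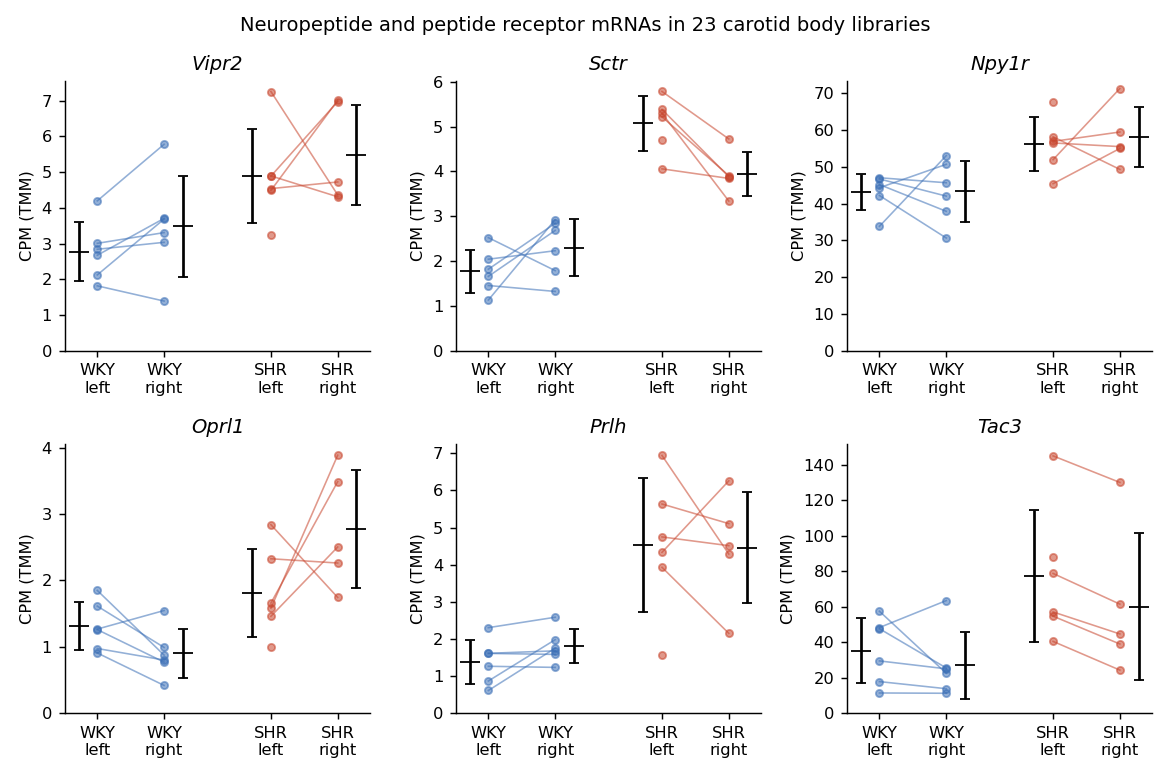
Normalised abundance (CPM) of the 6 genes in 23 CB libraries by strain and side. Each point is a library, lines join both CBs of a rat, and black bars give the mean and SD of each group; for Sctr the 11 SHR libraries lie above all 12 WKY libraries, whereas the strains overlap for Tac3.

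Vipr2 encodes VPAC2, a receptor for vasoactive intestinal peptide and pituitary adenylate cyclase-activating peptide. In WKY rats it ranged from 1.82 to 4.20 CPM on the left (median 2.76) and from 1.39 to 5.78 CPM on the right (median 3.50). In SH rats it ranged from 3.24 to 7.26 CPM on the left (median 4.71), and the 5 right CBs gave 4.31, 4.36, 4.72, 6.97 and 7.01 CPM. The strains overlapped, since 3 of the 6 SH rats lay above all WKY rats. The highest WKY rat, number 34, averaged 4.99 CPM, and the lowest SH rat, number 34, stood at 3.24 CPM from its left CB alone. The mean over rats was 3.13 ± 1.08 CPM in WKY and 4.99 ± 1.05 CPM in SH rats (SD, n = 6 rats each). The LFC was 0.73 (SE 0.183). LFC and SE, here and for the members below, are from the fit of 23 libraries, not from the rat means. That fit counts both CBs of a rat as separate samples. With counts summed per rat the Vipr2 LFC was 0.68 (SE 0.214). Raw counts were 14 to 78 per library, so counting error is a large part of each single value.

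Sctr encodes the secretin receptor, known from water and bicarbonate secretion in the gut and kidney. It ranged from 1.13 to 2.52 CPM in left WKY CBs (median 1.74) and from 1.32 to 2.92 CPM in right ones (median 2.46). In SH rats it ranged from 4.06 to 5.78 CPM on the left (median 5.26), and the 5 right CBs gave 3.34, 3.84, 3.88, 3.91 and 4.72 CPM. Every SHR library in this set lay above every WKY library, a full separation seen, in this direction, for 0.927% of the genes tested, although the right CB of SH rat 34, outside the set, lay below them all. The mean over rats was 2.03 ± 0.331 CPM in WKY and 4.57 ± 0.432 CPM in SH rats, an LFC of 1.16 (SE 0.166). Its spread over rats was the narrowest of the 6 in SH rats, with a coefficient of variation of 9.46%. Raw counts were 11 to 30 in WKY and 31 to 66 in SH libraries.

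Npy1r encodes the Y1 receptor for neuropeptide Y, the peptide that sympathetic nerves release with noradrenaline and that constricts vessels through this receptor. It ranged from 33.8 to 47.0 CPM in left WKY CBs (median 44.7) and from 30.6 to 53.0 CPM in right ones (median 43.8). In SH rats it ranged from 45.4 to 67.6 CPM on the left (median 56.7) and from 49.3 to 71.3 CPM on the right (median 55.5). Rat means did not overlap, as was the case, in this direction, for 3.38% of genes, although single libraries did, with 8 of 11 SHR libraries above all WKY libraries. The mean over rats was 43.3 ± 3.96 CPM in WKY and 57.9 ± 6.13 CPM in SH rats, and the LFC of 0.40 (SE 0.0815) was the smallest of the 6. With 278 to 704 counts per library it was also the receptor with the most counts behind it.

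Oprl1 encodes the receptor for nociceptin, a peptide that inhibits transmitter release. It was covered by only 4 to 18 counts per WKY library and 9 to 39 per SHR library. It ranged from 0.909 to 1.85 CPM in left WKY CBs (median 1.26) and from 0.421 to 1.55 CPM in right ones (median 0.840). In SH rats it ranged from 1.01 to 2.84 CPM on the left (median 1.62), and the 5 right CBs gave 1.74, 2.26, 2.50, 3.49 and 3.88 CPM. Of the 6 SH rats, 5 lay above all WKY rats, and the exception, rat 34, stood at 1.01 CPM from its left CB. The mean over rats was 1.11 ± 0.299 CPM in WKY and 2.15 ± 0.616 CPM in SH rats, an LFC of 1.01 (SE 0.241).

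Prlh encodes prolactin-releasing peptide, an RFamide peptide made by noradrenergic brainstem neurons. It ranged from 0.617 to 2.31 CPM in left WKY CBs (median 1.44) and from 1.24 to 2.59 CPM in right ones (median 1.72). In SH rats it ranged from 1.56 to 6.94 CPM on the left (median 4.54), and the 5 right CBs gave 2.15, 4.29, 4.51, 5.11 and 6.26 CPM. The LFC of 1.50 (SE 0.226) was the largest of the 6, with means over rats of 1.59 ± 0.457 CPM in WKY and 4.25 ± 1.61 CPM in SH rats. The SH rats were unequal: 5 of 6 lay above all WKY rats, while the left CB of rat 34 held 14 counts (1.56 CPM), within the WKY range. The right CB of SH rat 37, with 20 counts (2.15 CPM), also fell inside that range.

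Tac3 encodes the precursor of neurokinin B, a tachykinin known from hypothalamic neurons that drive gonadotropin release. It ranged from 11.5 to 57.6 CPM in left WKY CBs (median 38.6) and from 11.4 to 63.6 CPM in right ones (median 23.9). In SH rats it ranged from 40.6 to 145.1 CPM on the left (median 68.0), and the 5 right CBs gave 24.4, 39.1, 44.8, 61.6 and 130.2 CPM. The strains overlapped widely, with 3 of 6 SH rats above all WKY rats. The mean over rats was 31.2 ± 16.5 CPM in WKY and 71.1 ± 38.0 CPM in SH rats, an LFC of 1.14 (SE 0.336), the largest SE of the 6. That fit counts both CBs of a rat as separate samples, and with counts summed per rat the LFC was 1.18 (SE 0.447) and Tac3 was not called. It was also not called without SH rat 36 (LFC 0.76) or without WKY rat 41 (LFC 0.996).

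The rat, as distinct from the strain, was then tested: whether both CBs of a rat were more alike than CBs of different rats of its strain. This contrast played no part in the choice of the genes. Of the 6, only Tac3 differed between rats within strain by edgeR's quasi-likelihood F-test (F = 16.4, adjusted p = 0.00185), where 1.84% of genes were called, and it ranked 65 of 14254. The other members had adjusted p-values of 0.387 (Vipr2), 0.659 (Prlh), 0.798 (Npy1r), 0.916 (Oprl1) and 0.945 (Sctr).

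Tac3 rat means in WKY were 11.4 CPM in rat 34, 15.9 in rat 41, 27.4 in rat 36, 36.7 in rat 32, 40.1 in rat 37 and 56.0 in rat 33. In SH rats they were 32.5 CPM in rat 33, 46.9 in rat 37, 51.0 in rat 30, 70.2 in rat 31 and 137.6 in rat 36, with 88.3 CPM in the left CB of rat 34. The lowest and the highest rat of a strain thus differed 4.90-fold in WKY and 4.24-fold in SH rats. WKY rat 34 gave 11.5 CPM on the left and 11.4 CPM on the right, while SH rat 36 gave 145.1 and 130.2 CPM. By contrast, WKY rat 37 gave 57.6 CPM on the left and 22.6 CPM on the right, the widest gap within a rat.

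**Figure D2:**
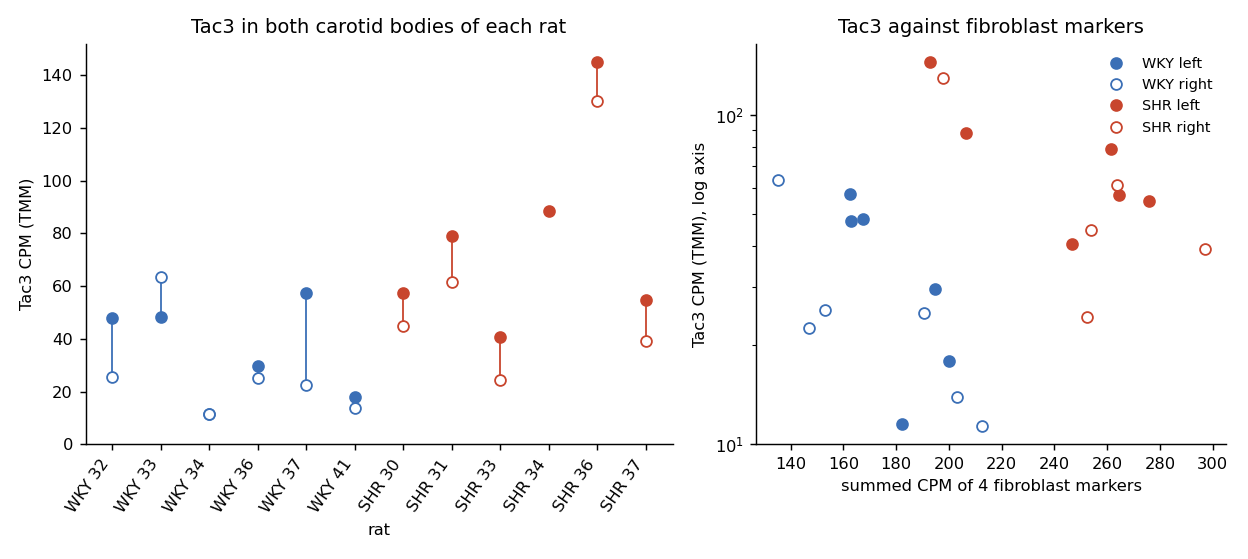
Tac3 CPM in the left (filled) and right (open) CB of each rat, and the same values on a log axis against the summed CPM of 4 fibroblast markers. Both CBs of SH rat 36 lie above 130 CPM and both of WKY rat 34 near 11 CPM; within each strain, libraries with more fibroblast marker RNA had less Tac3.

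Fitted in each strain alone, the rats of SHR differed in Tac3 (F = 69.7, adjusted p = 3.97e-06), while those of WKY did not pass the threshold (F = 8.58, adjusted p = 0.206). Whether the strains differed in this was not tested. Leaving out each of the 11 rats in turn kept the adjusted p between 8.89e-06 and 0.0204. With all 24 libraries the call was lost (F = 1.50, adjusted p = 0.674), where 0.316% of genes were called and the right CB of SH rat 34 enters with 1 Tac3 count.

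Tac3 varied with marker RNA of several cell types, in either direction. Over the 23 libraries, centred within strain and side, its log2 level had a Pearson r of -0.741 with the summed level of the fibroblast markers (Dpt, Ogn, Prelp and Omd), which was -0.749 in WKY and -0.734 in SHR libraries. Their summed level ran from 135.1 to 212.6 CPM in WKY and from 193.0 to 297.0 CPM in SHR libraries. In the F-test of rats within strain, Dpt and Prelp were called (adjusted p = 0.0453 and 0.0414), while Ogn and Omd were not (0.777 and 0.938). Of the smooth muscle markers, Cnn1 was called (adjusted p = 0.0366), while Acta2 and Tagln were not (0.209 and 0.205). With the summed fibroblast marker level as a covariate, a fit chosen after seeing the data, Tac3 no longer passed (F = 5.12, adjusted p = 0.202). The smooth muscle markers (Acta2, Tagln and Cnn1) had r = -0.496 and the glomus markers r = 0.548, and Tac3 passed with either as the covariate (adjusted p = 5.74e-05 and 0.0280). The libraries share their rats in pairs, so these correlations describe 23 libraries and not independent animals.

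The spread of the 6 genes between rats was compared with that of all genes tested. Tac3 rat means had an SD of 0.81 on the log2(CPM + 0.5) scale within strain, higher than in 99.7% of genes, and the median gene had 0.15. For Vipr2 and Prlh this SD was 0.34 and 0.32, higher than in 91.1% and 89.4% of genes. Their SD within rats was high as well, at 0.29 and 0.38, higher than in 77.3% and 87.1% of genes. Vipr2 had 14 to 78 counts per library and Prlh 6 to 70, and the part of counting error in these SDs was not tested. The agreement of left and right CBs of a rat, given as an intraclass correlation over 11 rats, was 0.853 for Tac3, higher than in 99.6% of genes. It was 0.470 for Vipr2, higher than in 84.3% of genes, and 0.176 for Prlh, near the median of 0.144 over all genes. For Npy1r, Oprl1 and Sctr it was below 0 (-0.237, -0.343 and -0.360), meaning that both CBs of a rat were no more alike than CBs of different rats. For Oprl1 and Sctr, counts of 4 to 66 per library limited what this comparison could detect.

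**Figure D3:**
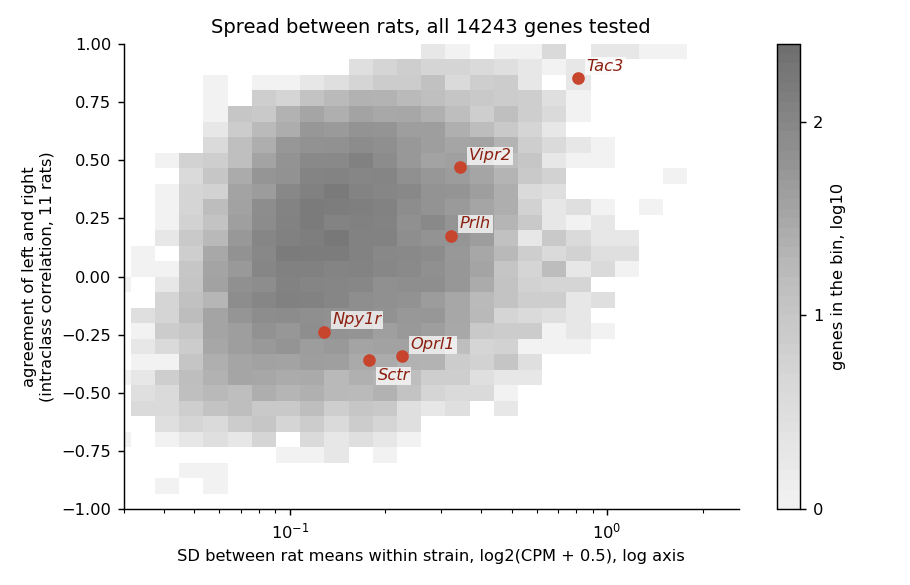
SD between rat means within strain (log axis) against the left-right intraclass correlation, for all genes tested (grey bins, shaded by the number of genes) and the 6 members (red). Tac3 lies at the upper right edge, at an SD of 0.81 and a correlation of 0.853, apart from the other members.

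No member passed the test of right against left CBs. No gene of the 14243 was called (0%) by edgeR with Benjamini-Hochberg adjustment, nor by DESeq2, and 702 had an unadjusted p under 0.05 in edgeR. Adjusted p-values of the members were 0.955 to 0.998. The estimates ran from -0.38 (Tac3) to 0.24 (Vipr2) on the log2 scale, right over left. The plot of right minus left differences shows that the members varied in both directions within rats.

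Tac3 was lower on the right in 10 of 11 rats, by a mean of -0.41 ± 0.455 (SD) on the log2(CPM + 0.5) scale. The exception was WKY rat 33, with 63.6 CPM on the right and 1.31 times the left value. In the fit without the rat the difference was -0.38 (SE 0.337). With the rat as a block it was -0.41 (SE 0.125), with an unadjusted p of 0.00545 and an adjusted p of 0.699, so it did not pass over all genes. Vipr2 was higher on the right in 8 of 11 rats, and each other member in 4 or 5 of 11.

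**Figure D4:**
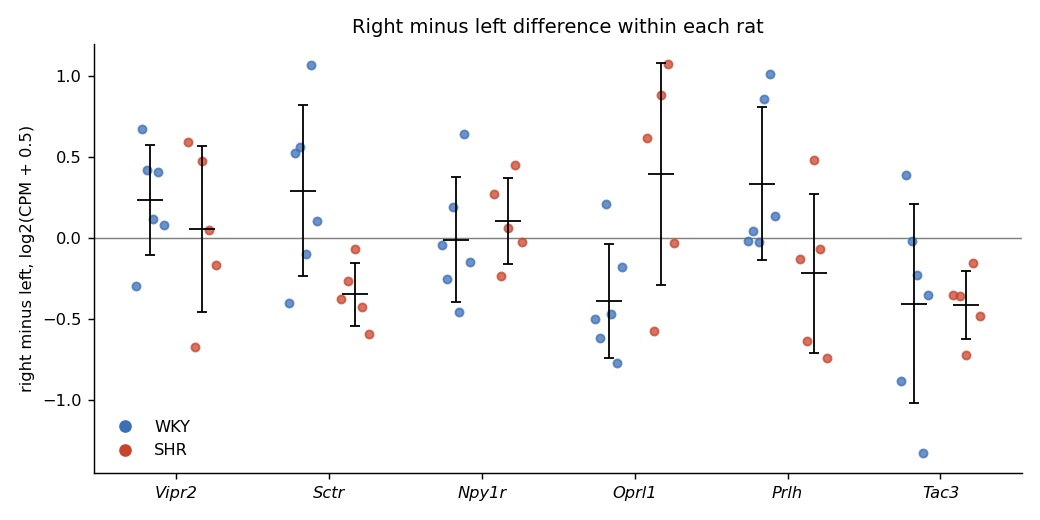
Right minus left difference of log2(CPM + 0.5) within each of 6 WKY and 5 SH rats, with the mean and SD of each strain in black. Tac3 lies below 0 in 10 of 11 rats, while Sctr lies below 0 in all 5 SH rats and above it in 4 of 6 WKY rats.

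The strain by side interaction asked whether the difference between strains was the same in left and right CBs. No gene was called (0%) by edgeR or by DESeq2, and 3.08% of genes had an unadjusted p under 0.05 in edgeR. Among the members, Oprl1 (unadjusted p = 0.0167) and Sctr (unadjusted p = 0.0240) were under that level, each with an adjusted p of 0.999. This fit counts both CBs of a rat as separate samples, and with the rat as a block no gene was called either.

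The estimates for these receptors had opposite signs. For Sctr the strain LFC was 1.51 (SE 0.234) in left CBs and 0.77 (SE 0.231) in right CBs, an interaction of -0.73 (SE 0.307). Sctr was lower on the right in all 5 SH rats and higher on the right in 4 of 6 WKY rats. For Oprl1 the strain LFC was 0.47 (SE 0.321) in left and 1.59 (SE 0.327) in right CBs, an interaction of 1.13 (SE 0.443). Oprl1 was higher on the right in 3 of 5 SH rats and in 1 of 6 WKY rats. For the remaining members the interaction ran from -0.40 (Prlh) to 0.05 (Npy1r).

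The right CB library of SH rat 34 was not used to choose the genes. Both CBs came from the same rat, and their counts were compared as 2 libraries, with exact 95% intervals that cover counting error only. Tac3 had 1 count there against 791 in the left CB, a left to right ratio of 708 (127 to 28000). Sctr had 1 count against 42, a ratio of 37.6 (6.39 to 1520).

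The ratio was smaller for the remaining members. Npy1r had 254 counts against 605, a ratio of 2.13 (1.84 to 2.48), and Vipr2 had 13 against 29, a ratio of 2 (1.01 to 4.19). Oprl1 had 2 counts against 9, a ratio of 4.03 (0.834 to 38.3). Prlh had 7 against 14, a ratio of 1.79 (0.677 to 5.24). For Oprl1 and Prlh the interval includes 1, so no difference between these libraries was detectable at this depth. Sctr, Oprl1 and Tac3 were lower there than in each of the other 23 libraries, whereas Npy1r and Vipr2 were undercut by 1 other library and Prlh by 2.

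**Figure D5:**
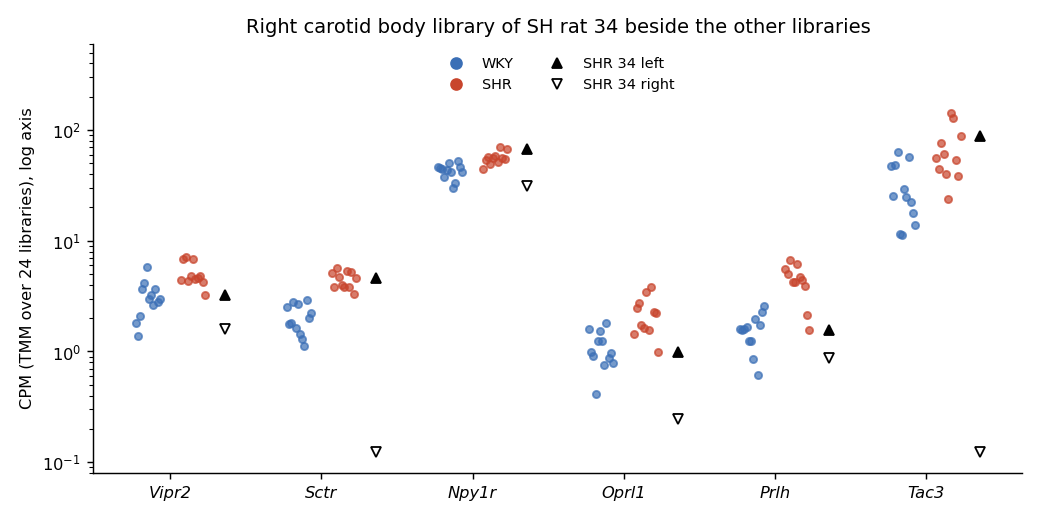
CPM of the 6 genes, normalised over all 24 libraries (log axis), in WKY and SHR libraries, with both CBs of SH rat 34 marked by triangles. The right CB (open triangle) lies at 0.124 CPM for Sctr and Tac3, below all other libraries, and at 31.4 CPM for Npy1r, inside the range of the WKY libraries.

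In the same library the glomus markers and other peptide genes were also low, and so were markers of further cell types. Ganglion neuron, smooth muscle and endothelial markers summed to 40.5, 257.2 and 194.7 CPM, against 440.5, 724.6 and 388.8 CPM in the left CB. Macrophage and striated muscle markers were lower as well (110.8 against 170.7 CPM and 17.8 against 28.6 CPM). Thyroid, adipocyte, mast cell and fibroblast markers were higher than in the left CB. Chgb, a granin of dense-core vesicles, had 31 counts against 7489 in the left CB, and Cartpt, the precursor of cocaine- and amphetamine-regulated transcript, had 3 against 608. Among the other peptide receptors, Agtr2, the type 2 angiotensin receptor, had 2 counts against 4482, while Bdkrb2, the bradykinin B2 receptor of vessels and many other cells, had 147 against 241. The fibroblast markers summed to 344.0 CPM, against 204.8 CPM in the left CB, with 1 of the 4 at 0 counts.

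The wider pathway was described by 8 other peptide receptors (Mc4r, Agtr2, Sstr1, Sstr2, Sstr3, Avpr1a, Gcgr and Bdkrb2) and 5 other neuropeptide and granin genes (Cartpt, Npw, Npff, Chga and Chgb, the last pair also glomus markers). All were also named from genes higher in SH rats, so their direction is fixed by the choice. Between strains 5 of 8 receptors and 3 of 5 peptide genes were called, with median LFCs of 0.516 and 0.398 against 0.00568 over all genes and with 20.1% of all genes called. With all 24 libraries 1 of each list was called, against 10.4% of all genes. None of the 13 was called for side or for the interaction, where no gene was, or for the rat, where 1.84% of genes were, so that a count of 0 among 13 is near the background. Mc4r, the melanocortin 4 receptor, went from 2.51 ± 0.459 CPM in WKY to 15.6 ± 4.73 CPM in SH rats, and Cartpt from 17.5 ± 2.88 to 41.8 ± 13.9 CPM (SD, n = 6 rats each). The intraclass correlations of these genes ran from -0.220 (Sstr3) to 0.559 (Chga), below the value of Tac3.

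How the 6 members varied together was described after strain and side were removed. Over the 23 libraries the 15 pairwise Pearson r values ran from -0.415 (Vipr2 and Tac3) to 0.457 (Sctr and Npy1r). The last pair had r = 0.745 in 12 WKY libraries and -0.328 in 11 SHR libraries. Vipr2, Prlh and Oprl1 showed the opposite pattern and moved together in SHR libraries. Vipr2 and Prlh had r = 0.801 there and -0.220 in WKY libraries, Vipr2 and Oprl1 0.697 and 0.112, and Oprl1 and Prlh 0.613 and -0.551. The left CB of SH rat 34 was the lowest SHR library for Vipr2 (3.24 CPM), Prlh (1.56 CPM) and Oprl1 (1.01 CPM). How far these r values rest on that library was not tested. Libraries also share rats in pairs, so the r values do not describe independent animals.

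For each member, the genes most like it were taken as the 3 with the highest r among 1272 genes with a symbol, all of them from the table of genes higher in SH rats. Among all genes tested, 0 to 39 had a higher r than a gene named here, most of them for Zc3h12d, Nup93 and Mir101a (39, 28 and 27). Tac3 was most like Magel2, an imprinted MAGE family gene (r = 0.806), Asic1, an acid-sensing ion channel subunit (0.715), and Il4r, the interleukin 4 receptor (0.698). Npy1r was most like Tmem35a, an assembly factor of nicotinic acetylcholine receptors (0.769), Arhgap36 (0.727) and Gulo (0.714). Prlh was most like RGD1565131 (0.793), Smim24 (0.764) and LOC498555 (0.692). Vipr2 was most like Cd37, a tetraspanin of leukocytes (0.695), Ccdc88b (0.686) and Eva1b (0.659). Sctr was most like Tapbpl (0.707), Mir101a (0.636) and Nup93 (0.632), and Oprl1 most like Mcpt1l1, a mast cell protease (0.724), Neurod4 (0.658) and Zc3h12d (0.619).

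Mast cell markers (Cpa3 and Cma1) also moved with Oprl1 in SHR libraries. Their summed level ran from 0.388 to 2.05 CPM in WKY and from 1.34 CPM, in the left CB of SH rat 34, to 9.25 CPM in SHR libraries. Over the 11 SHR libraries their level had r = 0.857 with Oprl1, 0.780 with Vipr2 and 0.586 with Prlh. In the 12 WKY libraries the values were -0.389, 0.173 and 0.308. The right CB of SH rat 34, outside these libraries, had 13.1 CPM of mast cell markers, more than any of the 23. Its Oprl1, at 2 counts, was nevertheless lower than in each of the other 23 libraries. Ganglion neuron markers had r = 0.741 with Prlh and 0.692 with Vipr2 in SHR libraries, against 0.119 and 0.257 in WKY libraries. The part of mast cell or neuronal RNA in these genes' values was not tested.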

How the data were processed

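The authors isolated poly(A) RNA from single CBs, built stranded TruSeq libraries, aligned reads with STAR and counted them per gene with featureCounts, per the labels. The deposited values are raw counts of whole reads for 32623 Ensembl genes in 24 libraries; the genome build is not given in the sources used here. No per-sample column was left unused (0).

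Symbols were taken from the study's gene table, of which 1391 rows were read and 1273 paired. Counts were scaled by TMM and tested with edgeR 4.0.16 (R 4.3.3; quasi-likelihood, robust) over genes with a mean normalised count above 10, with Benjamini-Hochberg adjustment at 0.05. The strain fit had side as covariate, the side fit strain, and the interaction fit both strain and side. All of these fits treated the 2 CBs of a rat as separate samples. The rat effect used 22 libraries of 11 rats. DESeq2 1.42.0 was an alternative. Levels are CPM, with a pseudocount of 0.5 on the log2 scale. Scripts were tested on simulated data. Figures used matplotlib 3.10.9. Levels were not compared between genes, since no transcript lengths were used.

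Left and right libraries with the same label number come from 1 rat, which pairs them; deviations of same-rat libraries correlated with a median r of 0.115 (-0.0353 to 0.286). Numbers shared by both strains mark different rats (r -0.224 to 0.0773). No 2 libraries agreed within sampling noise (lowest chi-square per degree of freedom 4.97). Members and lists were chosen with earlier results of these data known. Named genes are the 6 members, 2 lists of other peptide receptors and peptides, marker genes, and for each member the 3 named genes of highest r. Intervals cover counting error only.

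Other marker lists were read as summed CPM in WKY and SHR libraries: endothelial (Sox18, Mmrn2, Dll4, Rasip1 and Flt4) 262.2 to 344.3 and 344.2 to 445.9, macrophage (C1qa, C1qb, C1qc, Cd163 and Mrc1) 63.3 to 120.6 and 92.9 to 178.6, and striated muscle (Tnnt2, Tnnc1, Casq1, Actc1 and Myh3) 11.4 to 18.1 and 21.2 to 34.5.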

Additional observations from a re-analysis of the deposited data

Results flagged for a closer look

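Of 30 groups of member values examined, 3 held a library far from the rest of its group by Dixon's ratio of gap to range, which chance flags in about 1 in 20 groups. Sctr in the right CB of SH rat 34 stood at 0.124 CPM, against 3.29 to 4.69 CPM in the other 5 right CBs of SH rats, in the library that also had the lowest glomus marker level. Npy1r in the left CB of WKY rat 37 stood at 33.8 CPM, against 42.2 to 47.0 CPM in the other 5 left WKY CBs, while the right CB of that rat held 1.57 times the left value. Tac3 in the right CB of WKY rat 33 stood at 63.6 CPM, against 11.4 to 25.6 CPM in the other 5 right WKY CBs, and it was the only right CB of 11 with more Tac3 than the left CB of its rat.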

How the results depend on the processing

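The strain contrast called 2859 genes (20.1%), 1482 (10.4%) with all 24 libraries and 2039 (13.5%) with counts summed per rat. It called 1269 (8.93%) in left CBs only, 838 (5.89%) in right CBs only and 1728 (12.1%) with the rat number as a replicate block. It called 6 members, 4 with all 24 libraries or in left CBs only, 2 in right CBs only, 3 under that block and 5 with counts summed per rat (all but Tac3). Leaving out each rat gave 2193 to 2831 genes (15.4% to 19.9%) and 5 to 6 members. The members were chosen on this contrast, so nothing is read from their counts. Numbers shared by strains mark different rats, so that block is no pairing. The side and interaction fits called 0 genes under each alternative, with the rat as a replicate block too. The rat effect called 262 genes, 974 with DESeq2's likelihood ratio test, 466 without the filter, 45 with all 24 libraries, 106 in WKY only, 114 in SHR only, 139 with the fibroblast covariate, and 169 (without WKY rat 34) to 323 leaving out each rat. Tac3 was its 1 member called under those settings, with 0 for all 24 libraries, WKY only and the fibroblast covariate.

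The members' strain LFC kept its sign throughout. Some uncalled side estimates changed sign. Sctr was 0.37 in WKY only. Npy1r was -0.027 with all 24 libraries and -0.046 with the rat block added. Oprl1 was -0.033 with all 24 libraries, -0.13 with the block added, -0.53 in WKY only and -0.013 with the block alone. Prlh was -0.022 in SHR only. Leaving out each rat gave -0.12 to 0.055 for Sctr, -0.031 to 0.061 for Npy1r and -0.069 to 0.19 for Oprl1. Interactions that changed sign were Npy1r (-0.062 with all 24 libraries, -0.070 with the block added) and Tac3 (-0.23 and -0.52). Leaving out each rat gave -0.29 to 0.060 for Vipr2, -0.060 to 0.17 for Npy1r and -0.21 to 0.37 for Tac3. The fits with all 24 libraries and the rat block, and those with marker covariates, were chosen after seeing the data. The cause of these changes was not tested. Counts of at most 78 per library for Vipr2, Sctr, Oprl1 and Prlh limit what side and interaction fits can detect.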
